A study of Mus musculus with 4 samples.

Results

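The genes described here are 4 of the MHC class I presentation pathway: B2m, Psmb9, H2-D1 and Tapbp. Their H3K9ac, the acetylation of lysine 9 on histone H3 that marks active promoters, was measured by chromatin immunoprecipitation and sequencing in leukaemic mouse bone marrow. They were taken by name from the deposited table of 9615 genes, and all 4 had a row. Both H3K9ac libraries came from mice with homozygous floxed Gfi1b and the NUP98/HOXD13 transgene, a leukaemia model. One group lacked the Mx-Cre transgene, labelled Gfi1b(fl/fl), Nup98(tg) and MxCre(wt), and is called WT by the submitters although it carries the leukaemia transgene. The other carried it, labelled Gfi1b(fl/fl), Nup98(tg) and MxCre(tg), and is called tg. Mx-Cre is a Cre recombinase under the interferon-inducible Mx1 promoter. The labels give neither an age, nor the number of mice behind a library, nor whether or when an interferon inducer was used. There was 1 H3K9ac library per group, so that no difference below has a replicate check and "higher" and "lower" describe these 2 libraries. The 2 IgG libraries of the study were not analysed here.

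MHC class I molecules display peptides from inside the cell to cytotoxic T cells and also engage receptors of natural killer cells. The proteasome cuts proteins into peptides, the TAP transporter carries them into the endoplasmic reticulum, and tapasin holds the empty heavy chain, bound to beta-2 microglobulin, at the transporter until a peptide fits. The genes are expressed in nearly all nucleated cells and are strongly inducible by interferons. B2m encodes beta-2 microglobulin, the invariant light chain of all class I molecules. H2-D1 encodes the classical heavy chain of the D locus. Psmb9 encodes the catalytic subunit LMP2 of the immunoproteasome, and Tapbp encodes tapasin.

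The upstream sequences of the 4 genes are shown because H3K9ac at active genes centres on the start of transcription and because class I promoters carry well known response elements. Each line gives the 250 bases before the RefSeq start (GRCm38.p6), 5' to 3' on the gene's own strand. The windows are chr2:122147437-122147686 (plus strand) for B2m, chr17:34187331-34187580 (minus strand) for Psmb9, chr17:35262844-35263093 (plus strand) for H2-D1 and chr17:33919228-33919477 (plus strand) for Tapbp. The deposited rows of Psmb9, H2-D1 and Tapbp begin 434, 364 and 3579 bases upstream of these starts, so those windows lie inside the rows. Capitals mark the letters of 7 motifs searched on both strands, and adjoining or overlapping matches run together.
B2m: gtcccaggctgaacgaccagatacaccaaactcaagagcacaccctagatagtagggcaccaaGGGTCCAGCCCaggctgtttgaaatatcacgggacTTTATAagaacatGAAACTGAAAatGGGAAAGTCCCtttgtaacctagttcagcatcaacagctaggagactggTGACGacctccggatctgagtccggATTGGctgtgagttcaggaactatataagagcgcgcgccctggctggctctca
Psmb9: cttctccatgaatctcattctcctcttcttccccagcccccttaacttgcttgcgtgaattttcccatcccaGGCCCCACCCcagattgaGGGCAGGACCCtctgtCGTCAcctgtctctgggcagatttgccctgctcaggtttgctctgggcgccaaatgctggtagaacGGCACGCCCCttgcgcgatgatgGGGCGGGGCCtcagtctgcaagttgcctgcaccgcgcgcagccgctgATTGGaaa
H2-D1: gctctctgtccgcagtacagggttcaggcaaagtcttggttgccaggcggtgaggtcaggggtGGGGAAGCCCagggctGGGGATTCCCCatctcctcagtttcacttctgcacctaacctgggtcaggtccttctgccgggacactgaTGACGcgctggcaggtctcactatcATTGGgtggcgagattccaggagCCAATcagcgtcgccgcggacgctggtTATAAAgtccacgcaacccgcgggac
Tapbp: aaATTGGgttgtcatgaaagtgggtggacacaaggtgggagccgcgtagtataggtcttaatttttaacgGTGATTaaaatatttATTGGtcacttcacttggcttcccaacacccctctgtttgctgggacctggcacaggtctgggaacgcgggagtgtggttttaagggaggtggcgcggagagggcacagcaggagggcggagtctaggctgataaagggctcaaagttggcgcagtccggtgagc
The motifs were the core of the interferon-stimulated response element (ISRE; GAAA and GAAA with any 2 bases between), the interferon gamma activated site TTCNNNGAA, the kappaB pattern (GGG and CC with any 5 bases between), the cyclic AMP response element core TGACG, the CCAAT box CCAAT, the TATA box TATAAA and the GFI1 core AATCAC. KappaB matches overlap one another, since the pattern is loose.

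B2m, Psmb9 and H2-D1 each held the cyclic AMP element core, a CCAAT box and kappaB matches, and Tapbp held the CCAAT box alone of these. In B2m, an ISRE core lay 139 to 130 bases before the start and a kappaB match followed it at 127 to 118. TGACG lay at 78 to 74 and CCAAT, on the reverse strand, at 53 to 49. TATAAA matched only on the reverse strand, as TTTATA, at 152 to 147. In H2-D1, the kappaB matches lay between 187 and 161 bases before the start, TGACG at 101 to 97, CCAAT at 76 to 72 and at 53 to 49, and TATAAA at 26 to 21. Psmb9 held TGACG at 144 to 140 and CCAAT at 8 to 4, each on the reverse strand, and several kappaB matches. Tapbp held 2 CCAAT matches and, on the reverse strand at 180 to 175 bases before the start, AATCAC. Of all 32851 RefSeq promoters of the same length, 2.98% held an ISRE core, 17.8% TGACG, 33.8% CCAAT, 45.8% the kappaB pattern, 12.4% TATAAA, 7.02% TTCNNNGAA and 9.14% AATCAC. A match says only that the letters are there. Only exact matches were sought, so that elements with a differing letter were missed and a gene without a match may still hold one.

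The deposited value of a gene is a log2 level averaged over its probes, the intervals in which the authors counted reads. The table gives no probe positions, so that no value can be placed on a promoter, exon or intron. Values of genes with 1 probe were whole multiples of one step, 3.23 in WT and 6.11 in tg, which corresponds to scaling totals of 309649 and 163712 reads, set to 1000000. Whether a total holds all mapped reads or those within probes is not stated, and over the 9492 rows with recovered reads, some of which share probes, the counts sum to 316045 and 163984. Levels below are these scaled reads, summed over a gene's probes. Reads per probe were recovered from this. Where 1 library had 0 reads, a fold was taken against a floor of 3 reads, 9.69 (WT) or 18.3 (tg) scaled reads. All intervals are 95% and cover counting error only, because each group has 1 library. They treat reads as independent. Sequenced fragments without molecular identifiers are not independent molecules, so the intervals may be too narrow even for counting error. In marrow as a whole, fewer cells with the mark and less of the mark per cell cannot be told apart.

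H3K9ac at B2m, Psmb9 and H2-D1 was lower in tg than in WT by nearly the same factor, between 2.59 and 2.71. Tapbp was the exception among the 4: its summed reads did not differ beyond counting error. B2m had 142 reads in WT and 29 in tg on 1 probe, or 459 (interval 386 to 541) and 177 (119 to 254) scaled reads. Psmb9 had 122 and 24 reads on 1 probe, or 394 (327 to 470) and 147 (93.9 to 218) scaled reads. H2-D1 had 87 and 17 reads on 1 probe, or 281 (225 to 347) and 104 (60.5 to 166) scaled reads. The ratio interval of each of these 3 genes lay wholly below equality, as in 12.7% of the 9492 rows with recovered reads.

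As ratios of scaled reads, B2m was 2.59-fold lower in tg (1.73 to 4.0), Psmb9 2.69-fold (1.72 to 4.36) and H2-D1 2.71-fold (1.6 to 4.86). The deposited log2 ratios, tg minus WT, were -1.37, -1.43 and -1.44. The 3 intervals overlap widely, so these data do not order the 3 genes. By these values 3 of the 4 genes were at least 2-fold lower and 1, Tapbp, was at least 2-fold higher. Of all 9615 rows, 15.8% were at least 2-fold lower and 16.5% at least 2-fold higher in tg, and the median log2 ratio was 0.045. Among the 2406 rows at or above the upper quartile of level, where counting noise is smaller, 8.6% were at least 2-fold lower and 5.65% higher, and among the 4812 at or above the median level 10.8% and 10.2%. Ratios as low as those of B2m, Psmb9 and H2-D1 were found in 10.4%, 9.63% and 9.55% of all rows. An interval wholly below equality, which all 3 genes had, was found in 12.7% of the 9492 rows with recovered reads, and one wholly above it in 12.8%.

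**Figure D1:**
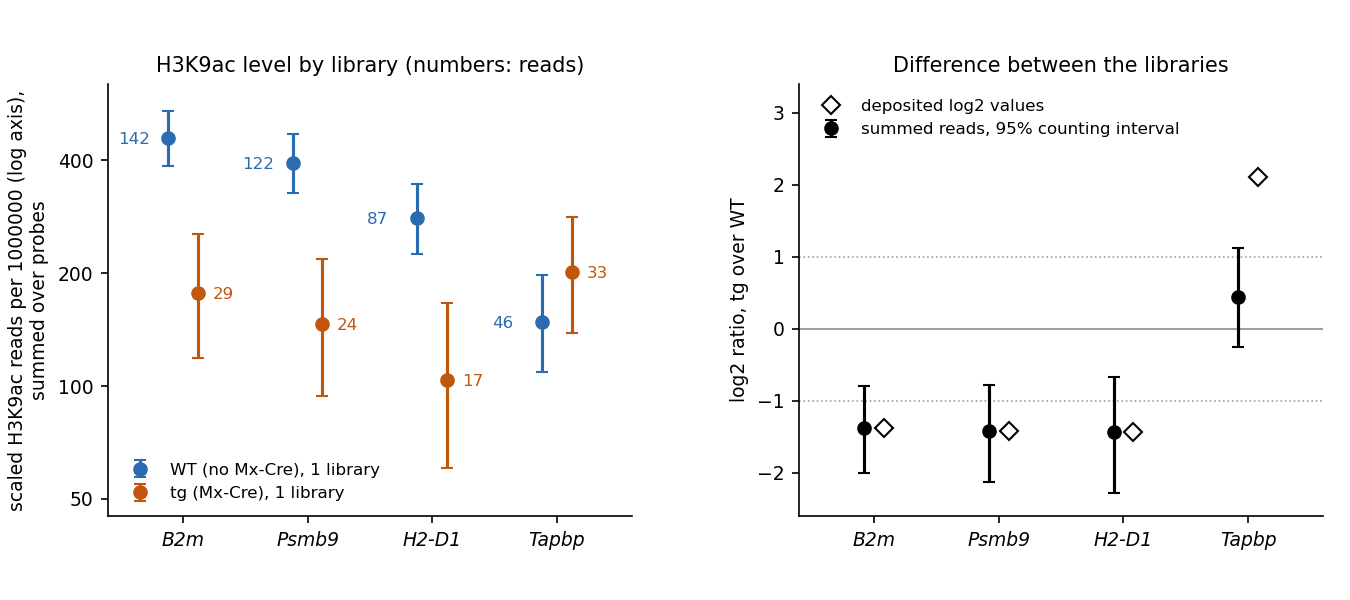
The left panel plots H3K9ac scaled reads on a log axis for the 4 genes in WT (blue) and tg (orange), with exact Poisson 95% intervals and the reads as numbers, and the right panel plots the log2 ratio of tg over WT from summed reads (circles, 95% counting intervals) and from the deposited values (diamonds), with dotted lines at 2-fold. B2m, Psmb9 and H2-D1 lie near -1.4 by both measures, which are the same for a gene with 1 probe. Tapbp lies at 0.44 by summed reads and at 2.11 by the deposited values.

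By deposited value, B2m was within the top 0.541% of all rows in WT and the top 8.58% in tg. Psmb9 moved from the top 1.07% to the top 13.9%, and H2-D1 from the top 3.02% to the top 27.4%. These are ranks of the deposited values within each library. Probe widths are not stated in any source used, so they are not ranks per length.

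Tapbp (chromosome 17, 33915899 to 33929288, ENSMUSG00000024308) had 2 probes, and its difference depended on how they were combined. Its WT probes held 0 and 46 reads and its tg probes 9 and 24. Summed, these were 46 and 33 reads, or 149 (109 to 198) and 202 (139 to 283) scaled reads, a ratio of 1.36 (0.841 to 2.17) that includes equality. The deposited log2 ratio was 2.11, at or above that of 95.1% of rows, because the mean of log2 values gives the probe with 0 WT reads, entered as 0.9 of a read, the same weight as the probe with 46. With that probe set to the floor of 3 reads the log2 ratio was 1.24.

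The 2 Tapbp probes cannot be matched between the libraries from the table alone. If the tall probe was the same in both, it held 46 and 24 reads and was equal for the depth (ratio 0.987, 0.576 to 1.65). The other then held 0 and 9 reads, 5.67-fold higher in tg against the floor, and the lower counting bound of its ratio was 3.73-fold. If the tall probe was not the same, the probe with 46 WT reads held 9 in tg (2.70-fold lower, 1.31 to 6.28). The row is also wider than the gene: it begins 3579 bases before the RefSeq start of Tapbp and spans the RefSeq genes Zbtb22, which encodes a zinc finger protein, and Gm19412, a long non-coding RNA. Neither has a row under its own name, so that a Tapbp probe may lie at one of them. The neighbours on either side did not differ beyond counting error. Daxx, which ends 310 bases before the Tapbp row and encodes a histone H3.3 chaperone, had 56 and 27 reads (ratio 0.912, 0.554 to 1.47). Rgl2, which begins 255 bases after it, had 39 and 14 reads (0.679, 0.341 to 1.28).

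B2m and Psmb9 each share their probe with a neighbour. B2m (chromosome 2, 122147686 to 122153083, ENSMUSG00000060802) lies inside the span of Patl2, which encodes an RNA-binding protein of oocytes. The 2 Patl2 probes held 142 and 11 reads in WT and 29 and 3 in tg, the counts of B2m and of Trim69, which also lies within the Patl2 span. The log2 ratio of Patl2, -1.16, thus repeats those 2 genes and is no separate measurement. Trim69, which begins 7617 bases after B2m, had a ratio of 0.516 (0.0924 to 1.95) on 11 and 3 reads.

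Psmb9 (chromosome 17, 34181988 to 34187764, ENSMUSG00000096727) is transcribed away from Tap1, which encodes a subunit of the peptide transporter. The RefSeq starts are 226 bases apart, 225 of the 250 bases shown for Psmb9 are also upstream of Tap1, and the rows overlap. Tap1 had 2 probes, with 122 and 10 reads in WT and 24 and 5 in tg. The taller has the counts of Psmb9 in both libraries, so the 2.69-fold difference belongs to Psmb9 and Tap1 alike. The other Tap1 probe held 10 and 5 reads and was equal for the depth (ratio 0.946, 0.254 to 3.04). Its weight in the average leaves Tap1 with a deposited log2 ratio of -0.75, while the summed reads were 2.41-fold lower (1.6 to 3.73).

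H2-D1 (chromosome 17, 35262730 to 35267499, ENSMUSG00000073411) shared its counts with no row within 100000 bases. The row before it, of a small nucleolar RNA within Ddx39b, an RNA helicase gene, had 91 and 43 reads (ratio 0.894, 0.607 to 1.30). The next row, 109522 bases further on, was Gm11131, with the same values as the heavy chain gene H2-Q4. Class I heavy chain genes are similar in sequence and vary between mouse strains. How reads that match several of them were placed is not stated in any source used, so single heavy chain values are uncertain.

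Of the 59 genes listed for the pathway, 44 had a row. By deposited log2 values 13 lay 2-fold or more below WT (background 15.8%), 3 were at least 2-fold higher (background 16.5%) and 28 lay between, with a median of -0.21 beside 0.045 over all rows. Without B2m, Psmb9, H2-D1 and Tapbp, 10 of 40 were lower and 2 higher, with a median of -0.14. The plot of the pathway genes shows 43 of them by role.

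**Figure D2:**
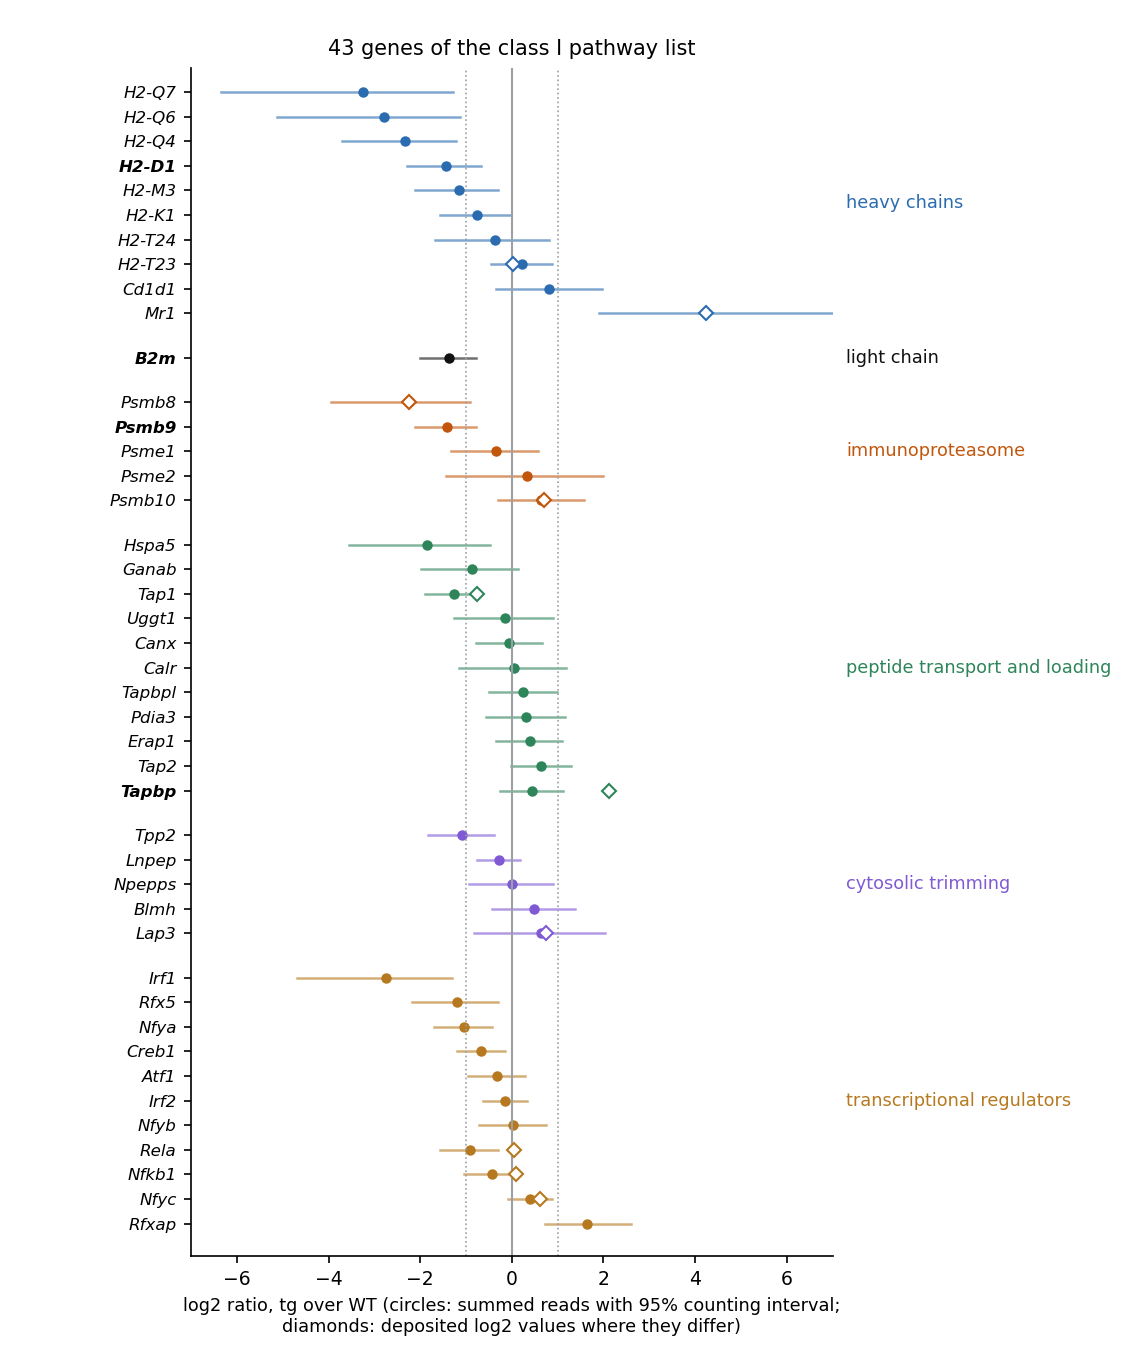
The plot gives the log2 ratio of tg over WT for 43 of the 44 listed genes with a row, grouped by role, with circles and lines for summed reads and their 95% counting intervals, diamonds for deposited values that differ from them, dotted lines at 2-fold and the 4 genes of the report in bold. Most heavy chain genes lie to the left of 0, whereas most genes of peptide transport and loading straddle it.

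Most heavy chain genes in the MHC were lower in tg. Of the 8 on chromosome 17, 5 were at least 2-fold lower (background 15.8%) and 0 higher (background 16.5%), the median was -1.30, and their reads summed to 426 (WT) and 104 (tg), 2.17-fold lower (1.74 to 2.71). This sum does not depend on how reads were split among these 8 genes. It may depend on reads placed at heavy chain genes without a row, such as H2-Q1 and H2-T22. The non-classical genes H2-Q7, H2-Q6 and H2-Q4 had the lowest ratios of the heavy chain genes. H2-Q7 had 36 and 2 reads (9.52-fold lower, 2.45 to 81.6), H2-Q6 had 39 and 3 (6.87-fold, 2.18 to 34.8) and H2-Q4 had 67 and 7 (5.06-fold, 2.33 to 13.1). H2-M3, which presents N-formylated peptides, had 59 and 14 reads (2.23-fold lower, 1.23 to 4.32).

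H2-K1, the other classical heavy chain gene, was lower by less than 2-fold, with 64 and 20 reads (1.69-fold, 1.01 to 2.95), and its interval overlaps that of H2-D1. H2-T23, which encodes the Qa-1 ligand of natural killer receptors, was near equality with 52 and 32 reads (ratio 1.16, 0.725 to 1.84). Outside the MHC, Mr1, which presents vitamin metabolites to MAIT cells, had no WT read (0) and 9 reads in tg. Set against the floor, Mr1 was 5.67-fold higher, and the lower counting bound of its ratio was 3.73-fold. Cd1d1, which presents lipids, had 15 and 14 reads (1.77, 0.789 to 3.92).

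Within the immunoproteasome, Psmb8, the LMP7 subunit gene, was lower beside Psmb9, and the intervals of the other genes included equality. Psmb8 had probes of 17 and 28 reads in WT and of 2 and 3 in tg, 4.76-fold lower in sum (1.90 to 15.4). Psmb10, the third inducible catalytic subunit gene, had 23 and 19 reads (ratio 1.56, 0.805 to 3.0). Psme1, a subunit gene of the PA28 activator, had 36 and 15 reads (0.788, 0.401 to 1.48). Of the 13 genes of the constitutive proteasome core with a row, 2 were 2-fold lower (background 15.8%) and 0 higher (background 16.5%), with a median of 0.33. Their summed reads had a ratio of 1.12 (0.93 to 1.34), while the 5 immunoproteasome genes were 1.8-fold lower in sum (1.37 to 2.39). Of the 235 WT reads of these 5 genes, Psmb9 held 122 and Psmb8 held 45.

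Of the 11 genes of peptide transport and loading, 9 lay within 2-fold by deposited values, 1 was lower (background 15.8%), 1 was higher (Tapbp; background 16.5%) and the median was 0.057. By summed reads the intervals of 2, Hspa5 and Tap1, lay wholly below equality. Tap1 was 2.41-fold lower, through the probe it shares with Psmb9. Tap2, the other transporter subunit gene, had 46 and 38 reads (1.56, 0.989 to 2.45), a probe it shares with the gene model Gm20496. Tapbpl, the tapasin-like editor gene, had 43 and 27 reads (1.19, 0.706 to 1.97), and Erap1, which encodes the trimming peptidase of the endoplasmic reticulum, 42 and 29 (1.31, 0.785 to 2.15). Hspa5, the chaperone gene of BiP, was lower with 34 and 5 reads (3.6-fold, 1.4 to 11.8). Among the cytosolic peptidases, Tpp2 was lower on 88 and 22 reads (2.11-fold, 1.31 to 3.54).

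Of 12 regulator genes, 3 were 2-fold lower and 1 was higher, beside 15.8% and 16.5% of all rows. Irf1, an interferon-induced activator of class I genes, had 51 and 4 reads (6.74-fold lower, 2.48 to 25.7). Rfx5, a subunit gene of the RFX complex that binds class I and class II promoters, had 56 and 13 (2.28-fold, 1.23 to 4.54), and Nfya, of the CCAAT-binding factor, had 109 and 28 (2.06-fold, 1.35 to 3.24). Another RFX subunit gene went the other way: Rfxap had 17 and 28 reads (3.12-fold higher, 1.65 to 6.07). Nlrc5, the class I transactivator gene, was not analysed here.

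Genes listed as regulators of the interferon response, Socs1 and Irf2 among them, were lower in part. Of 15 such genes, 6 were 2-fold lower (background 15.8%) and 1 higher (background 16.5%), with a median of -0.67. The higher gene was Tyk2, on 1 and 8 reads (15.1-fold, 2.03 to 671). The 6 include Irf1, which is also on the pathway list, and Irf8, which is also a monocyte marker here, and 5 of 14 were lower without Irf8. Both subunit genes of the interferon gamma receptor were lower, Ifngr1 on 43 and 8 reads (2.84-fold, 1.32 to 7.0) and Ifngr2 on 41 and 7 (3.10-fold, 1.38 to 8.18), while Ifnar2 of the type I receptor was near equality on 91 and 42 reads (0.873, 0.591 to 1.27). Of the MHC class II pathway 4 of 13 genes had a row, with 40 reads in WT and 14 in tg in all (ratio 0.662, 0.333 to 1.24).

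H2-D1, Psmb9 and Tapbp lie in the MHC on chromosome 17 among many rows that are not on the pathway list, whose values stand beside theirs here. Between Tapbp and H2-M3, 3.36 Mb, the table has 94 rows. Of the 13 on the pathway list, 7 were 2-fold or more lower (background 15.8%) and 1 was higher (background 16.5%), with a median of -1.16. Of the other 81, 13 were lower and 5 higher, with a median of -0.010, and with identical neighbours counted once 10 of 64 were lower. The other rows include Gm11131, with the values of H2-Q4, and Gm20496, with those of Tap2. Repeats were dropped only among the other rows, so both gene models stay among the 64. These boundaries were chosen after the values were seen.

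**Figure D3:**
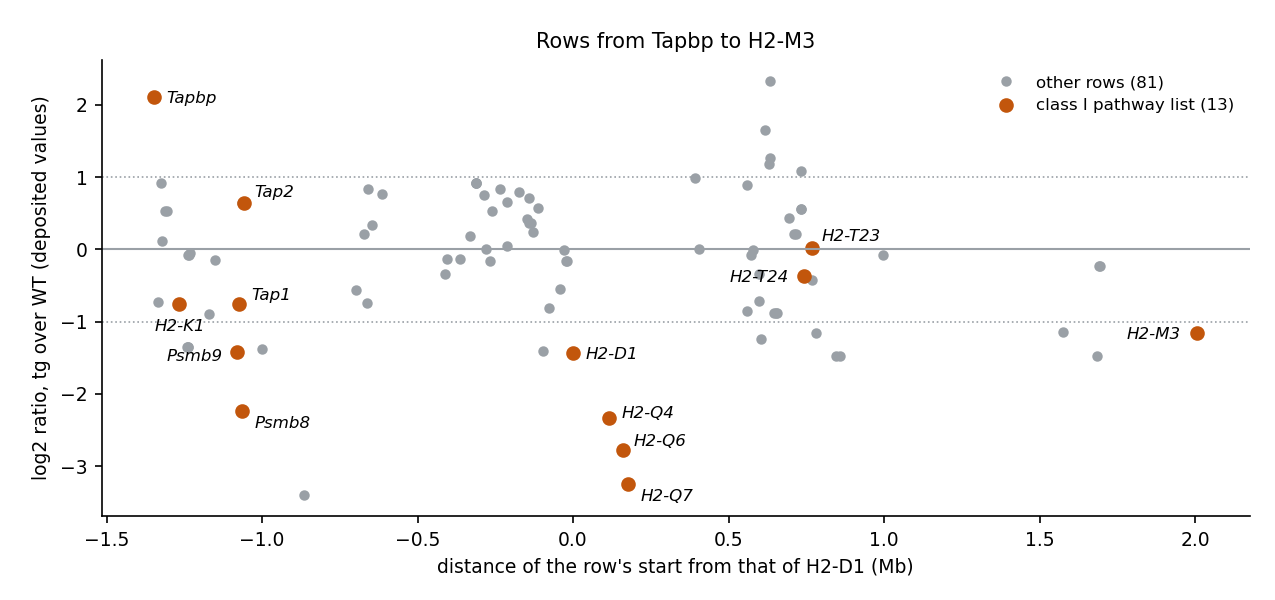
Each point is a row between Tapbp and H2-M3 on chromosome 17, with its distance from the start of H2-D1 in Mb on the horizontal axis and the deposited log2 ratio of tg over WT on the vertical axis, and dotted lines at 2-fold. The 13 pathway genes (orange) include the lowest cluster, H2-Q4, H2-Q6 and H2-Q7, while the 81 other rows (grey) scatter around 0 and include the lowest single row.

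Markers of cell types differed between the same libraries, and their part in the class I values was not tested. The background for the counts below is 15.8% of all rows at least 2-fold lower and 16.5% at least 2-fold higher. All 9 erythroid markers were at least 2-fold higher in tg, with a median log2 ratio of 4.39 and summed levels of 229 scaled reads in WT and 2156 in tg. Epor, Alas2 and Rhag had 0 reads in WT. All 4 neutrophil markers with a row were at least 2-fold lower (summed levels 275 and 42.8, on 85 and 7 reads). The interval of Prtn3, on 15 and 2 reads, included equality. Of 6 monocyte and macrophage markers 3 were lower and 1 higher (1844 and 397). Irf8 alone held 407 of the 571 WT reads of these 6, and without it the other 5 summed to 530 and 220 scaled reads, so that the sum was 2.41-fold lower (1.67 to 3.56) instead of 4.64-fold. Both dendritic cell markers were lower (284 and 73.3, on 88 and 12 reads), but the interval of Tlr9, on 12 and 1 reads, included equality. Of the lymphoid markers, the 2 B cell genes summed to 149 and 220 scaled reads, on 46 and 36 reads. The 2 T and NK cell genes summed to 29.1 and 85.5, on only 9 and 14 reads. The 1 stromal or endothelial marker with a row, Pecam1, had 19 and 1 reads.

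**Figure D4:**
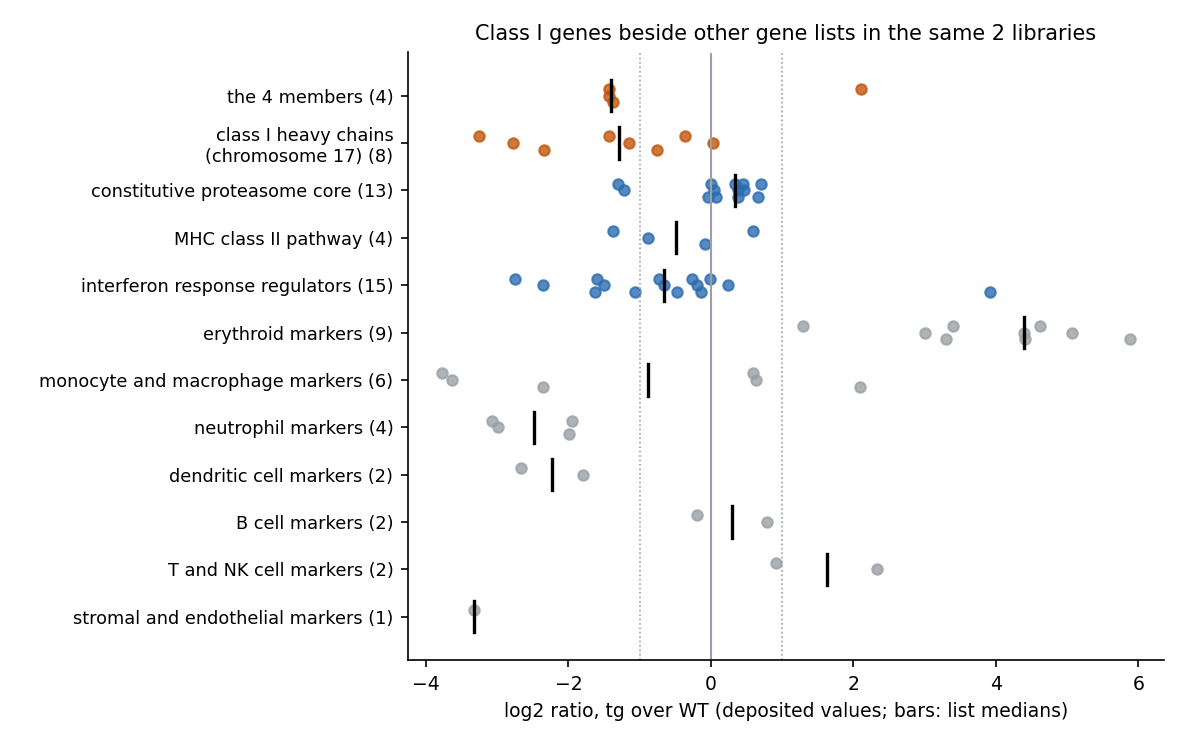
Each point is a gene's deposited log2 ratio of tg over WT, by list, with black bars for list medians, dotted lines at 2-fold and the number of genes in brackets. B2m, Psmb9 and H2-D1 sit close together near -1.4, with Tapbp apart at 2.11. The erythroid markers, from 1.29 upwards, lie to the right of B2m, Psmb9 and H2-D1, and the neutrophil markers lie to the left.

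All 7 motifs were also searched in the 250 bases before the start of the 37 pathway genes whose row matched a RefSeq promoter by symbol, and the counts below are descriptions read after the values were seen. Of 22 with CCAAT, B2m, Psmb9, H2-D1 and Tapbp among them, 12 were 2-fold or more lower and 1 was higher (median -1.06), against 1 lower and 1 higher of 15 without a match (median 0.035). Over all 6675 rows with a promoter, 16.2% with CCAAT and 15.7% without it were at least 2-fold lower. With TGACG, 7 of 14 pathway genes were lower, and without it 6 of 23, where over all rows the shares were 14.8% and 16.5%. With TATAAA all 5 were lower, B2m and H2-D1 among them, and without it 8 of 32 (over all rows 18.9% and 15.7%). The match of B2m lay on the reverse strand at 152 to 147 bases before the start, and that of H2-D1 at 26 to 21. With the kappaB pattern 11 of 29 were lower, and without it 2 of 8 (16.4% and 14.8%). Of the genes with TTCNNNGAA 3 of 5 were lower, and without it 10 of 32 (13.6% and 16.1%). With AATCAC 3 of 6 were lower, and without it 10 of 31 (15% and 16%). With the ISRE core 1 of 3, B2m, was lower, and without it 12 of 34 (26.5% and 15.5%). Genes counted as without a motif lack only an exact match to it. Paralogous heavy chain genes share promoter sequence, so these genes are not independent.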

How the data were processed

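H3K9ac was profiled in 2 of the 4 samples, and the table's columns were matched to them by the library codes in their names. The deposited values are log2 levels per gene, averaged by the authors over a gene's probes, with a standard deviation over probes, per the file headers. Per the submitters' processing notes the tools included CASAVA 1.8.2, FastQC, BWA and SAMtools, and the builds mm10 and GRCm38 appear there. Probe placement and the treatment of duplicate reads and of reads with several matches are not stated in any source used.

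Values of all 7423 rows with 1 probe were whole reads within 0.01 of a read in both libraries, with 0 entered as 0.9. Reads were recovered for 9492 rows with 1 to 4 probes where exactly 1 set of whole numbers matched, and the method was tested on simulated data. Scaling totals were 309649 (WT) and 163712 (tg) reads. Folds are ratios of summed reads over these totals; their intervals are Clopper-Pearson intervals of the conditional binomial, which is exact, and levels have exact Poisson intervals (Python 3.11.15, scipy 1.17.1). Sums over the pathway list count the probe of Psmb9 and Tap1 once for each gene. With 1 library per group no test was made.

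The genes named are the 4 members, the pathway genes beyond 2-fold with the 4 highest and 4 lowest, and the rows nearest the members. Others, chosen after their values were seen, are given as partners or counterparts. Members and lists were chosen with earlier results of these data known. Promoters and gene positions are from RefSeq (GRCm38.p6), in which all 4 members matched by symbol. The values of 1 gene of the pathway list are not reported here, although the list counts include it.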

Additional observations from a re-analysis of the deposited data

How the results depend on the processing

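B2m, Psmb9 and H2-D1 have 1 probe each, so summed reads repeat their deposited values and are no check. With the median of all genes, 0.045, subtracted, their log2 ratios were -1.42, -1.47 and -1.48. So small a shift could not bring them within 2-fold. Tapbp, with 2 probes, did depend on the processing. Its log2 ratio of 2.11 was 0.44 with summed reads and 1.24 with the floor of 3 reads. It turned to -0.019 when only the tallest probe of each library was used, a choice made after seeing the data. In the pathway list, 8 genes instead of 3 were higher at 1.5-fold, 6 instead of 13 were lower at 3-fold, and 1 was higher among genes at or above the median level, where the list's median was -0.33. Of all genes, 493 (higher) and 519 (lower) instead of 1586 and 1522 were beyond 2-fold at or above the median level, and 136 and 207 at or above the upper quartile, where fewer genes were counted. The other alternatives moved no count by over 1.5 times. Without Irf8, a choice made after seeing the data, the log2 ratio of the summed monocyte markers was -1.27 instead of -2.22. No paired analysis was possible because each group has 1 library, and for the same reason no library could be left out. One read is 6.11 scaled reads in tg, so genes with few tg reads, such as H2-Q7 with 2, have wide intervals.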

Other observations

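Of all 6675 rows with a RefSeq promoter, the 219 with the interferon-stimulated response element core (GAAA and GAAA with any 2 bases between) in the 250 bases before the start were at least 2-fold lower in tg in 26.5% of cases (58 genes), against 15.5% of the 6456 rows without it. Their median log2 ratios were -0.19 and 0.048. Of the other motifs searched, TATAAA, on either strand and at any position in the window, had the next widest gap, 18.9% against 15.7%. B2m was 1 of 3 pathway genes with this core, and the others, H2-T23 and Irf2, had log2 ratios of 0.025 and -0.14. Only exact matches to the core were counted. These shares describe the 2 libraries and were not tested.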
